A study of Caenorhabditis elegans with 4 samples.

Results

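The genes described here are 103 protein-coding genes of the nematode *Caenorhabditis elegans* that have only a sequence name (such as C27D9.1), lie on the autosomes, and were read in dissected gonads but hardly at all in worms with few germ cells. They were selected on read counts of the 4 RNA sequencing libraries themselves. A gene was kept when it had at least 20 counts per 1e+06 counts of its library (CPM) in both gonad libraries and under 2 CPM in both whole-worm libraries, so the difference between gonads and whole worms is what chose them and is given as a description without a test. The count table holds 20182 rows, of which 6755 are unnamed autosomal protein-coding genes. Under the same limits there were 114 named autosomal genes and 18 unnamed genes on the X chromosome.

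The gonad samples came from N2, the wild-type laboratory strain, as gonads dissected from young adults. The other samples were entire young adults carrying *glp-4(bn2)*, a temperature-sensitive allele with which very few germ cells form at the restrictive temperature. Each group had 2 libraries, and each library pooled the material of about 50 worms or gonads. All worms were grown on OP50 bacteria, and no growth temperature is given in the labels. The groups differ in strain and in dissection as well as in germ cells, so these cannot be told apart. Nothing in the labels says whether duplicates came from separate cultures, and the p-values therefore rest on a spread that may be technical.

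A worm gene gets a sequence name from the clone or chromosome stretch in which it was predicted, followed by a dot and a number, and it gets a hyphenated name later, usually when a mutant, a family or a function has been described. The adult hermaphrodite gonad holds germ cells in a row, from mitotic cells near the distal tip through meiosis to growing oocytes, wrapped by a few somatic sheath cells. Oocytes store messenger RNA for the early embryo, so many transcripts of the gonad act only after fertilization. The X chromosome is largely silenced in the worm germline during much of germ cell development, and germline genes are known to be concentrated on the autosomes. Many neighbouring worm genes are transcribed together as operons, with the downstream genes closely following the first on the same strand.

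The libraries held 21807319 and 24148971 counts in gonad replicates 1 and 2 and 19581108 and 25664413 counts in whole-worm replicates 1 and 2. Where a gene had no count, up to 3 counts remain possible, or 0.117 to 0.153 CPM depending on the library, a limit that covers counting error only. Markers of germ cells and oocytes were high in gonads, and those of intestine in whole worms. Those of sperm, sheath and distal tip did not separate the groups in this way. The 6 germ cell markers summed to 2820 and 2789 CPM in gonads and to 62.5 and 57.2 CPM in whole worms. The 6 oocyte markers summed to 18772 and 18623 CPM in gonads against 178 and 157 CPM. Intestinal markers, at 24328 and 26430 CPM in whole worms, were at 110 and 82.3 CPM in gonads. The 6 sperm markers together stayed between 6.001 and 7.86 CPM in all 4 libraries, and *spe-38* was at 0 in each. Of the 3 tested, *spe-11* was gonad-enriched and *spe-4* soma-enriched. The 4 markers of sheath and distal tip summed to 73.1 and 60.7 CPM in gonads and to 110 and 118 CPM in whole worms. Most of the gonad sum was *inx-8*, at 66.3 and 53.7 CPM, and *ceh-18* was at 1.60 and 1.45 CPM in gonads against 70.6 and 73.0 CPM. The markers of body wall muscle (3), pharynx (3) and epidermis (4) were all soma-enriched, while 3 of the 5 neuron markers were. In such bulk samples, fewer cells of a type and less RNA per cell cannot be told apart.

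Together the 103 genes took 0.758% and 0.736% of the counts of the gonad libraries and 0.00907% and 0.00837% of those of the whole-worm libraries. Their summed level was 7583 and 7363 CPM in gonads against 90.7 and 83.7 CPM in whole worms. The whole-worm sum was 1.17% of the gonad sum, between the 2.13% of the 6 germ cell markers and the 0.897% of the 6 oocyte markers. The limits bound the share of the set but not those of the markers, so nothing is read from their order. These shares are descriptions, and whether the whole-worm counts come from remaining germ cells was not tested.

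Single genes ranged from 20.5 to 296 CPM in gonad replicate 1 with a median of 51.2 CPM, and from 20.4 to 277 CPM in gonad replicate 2 with a median of 50.6 CPM. In the whole-worm libraries they ranged from 0 to 1.99 CPM and from 0 to 1.91 CPM, with medians of 0.817 and 0.779 CPM. The middle gene of the set thus rested on 1116 and 1223 counts in gonads and on 16 and 20 counts in whole worms. Relative to its mean gonad CPM, the whole-worm level of a gene was 1.11% at the median, from 0.0469% for F14H3.3 to 5.86% for C27H6.9. The mean whole-worm level was under 1 CPM in 61 of the 103 genes, and the mean gonad level reached 100 CPM in 26. In the edgeR quasi-likelihood fit over all 13101 tested genes, the log2 fold change (gonad over whole worm) of the set had a median of 6.65 and ran from 4.26 to 11.08, beside a median of -1.50 over all tested genes. The highest value, that of F14H3.3, rests on 1 whole-worm count and has no firm size. All 103 were called gonad-enriched (at least 2-fold at a Benjamini-Hochberg adjusted p under 0.05), against 30.9% of all tested genes and 35% of tested autosomal protein-coding genes, a count that the selection fixes and from which nothing is read.

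**Figure D1:**
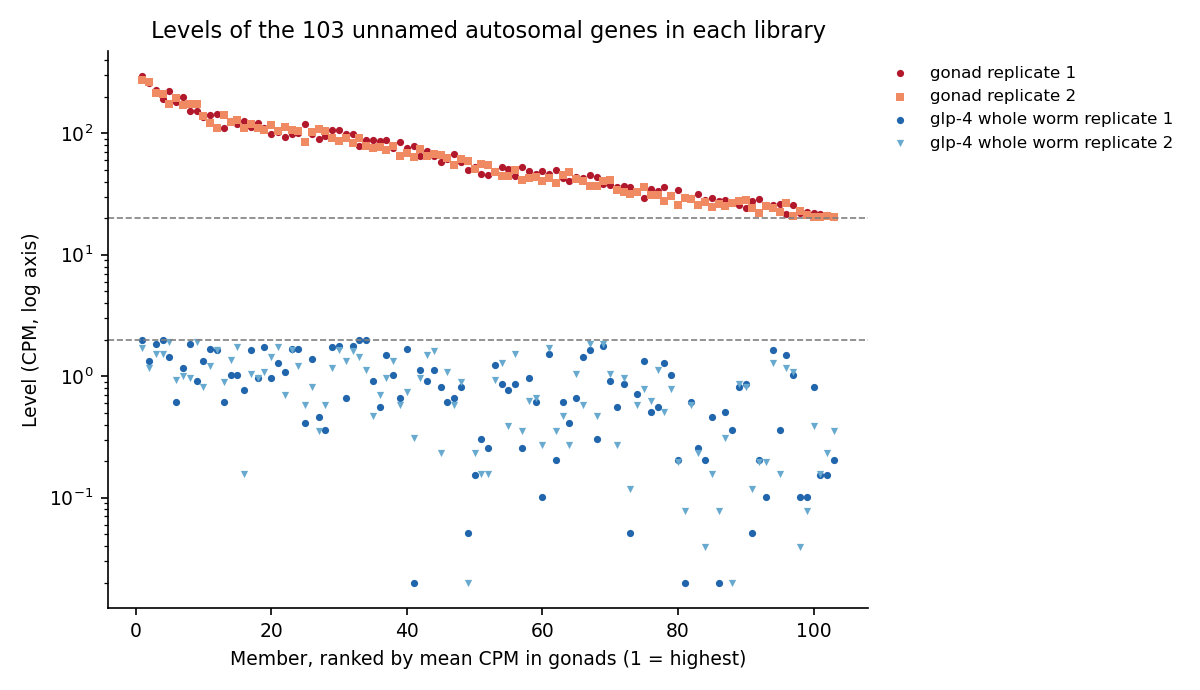
Levels of the 103 unnamed autosomal genes in the 4 libraries in CPM on a log axis, with genes ranked by mean gonad CPM and dashed lines at the 2 limits. Gonad values lie between 20.4 and 296 CPM and whole-worm values at or below 1.99 CPM, with counts of 0 drawn at 0.02 CPM. The gap between the groups is set by the limits used to choose the genes.

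T05F1.2 (chromosome I, 9622613 to 9624724, plus strand, WBcel235) had the highest counts of the set. It stood at 296 and 277 CPM in gonads and at 1.99 and 1.71 CPM in whole worms, for a log2 change of 7.43 (SE 0.18). C08F8.3 (chromosome IV, 11155044 to 11156635, plus strand) followed with 258 and 266 CPM in gonads against 1.33 and 1.17 CPM in whole worms. These 2 genes differed by less in gonad replicate 2 than in gonad replicate 1, but T05F1.2 was the higher in both. T12G3.6 (chromosome IV, 12030051 to 12031271, minus strand) had 228 and 217 CPM in gonads against 1.84 and 1.52 CPM in whole worms. T28A8.6 (chromosome III, 13499199 to 13501510, plus strand) had 192 and 209 CPM against 1.99 and 1.52 CPM. Y110A2AR.1 (chromosome II, 2919710 to 2920904, plus strand) had 223 and 176 CPM against 1.43 and 1.91 CPM. T12G3.6 was higher than both of these in each gonad library, while T28A8.6 and Y110A2AR.1 changed order between the duplicates. C27D9.1 (chromosome II, 4753413 to 4755603, plus strand) had 179 and 196 CPM in gonads and the lowest whole-worm level of the 8 highest genes, 0.613 and 0.935 CPM, with a log2 fold change of 8.02 (SE 0.21). Y18D10A.11 (chromosome I, 12861951 to 12863544, minus strand) had 198 and 170 CPM in gonads against 1.17 and 1.01 CPM in whole worms. B0238.9 (chromosome V, 5275554 to 5278101, minus strand) had 153 and 176 CPM against 1.84 and 0.974 CPM. Each of these 8 genes had over 100 CPM in both gonad libraries, while T05F1.2 and T28A8.6 were close to the 2 CPM ceiling in whole-worm replicate 1.

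Levels between genes were compared per kilobase of annotated exon, since a longer gene collects more counts. On this scale the genes ran from 9.98 to 265 CPM per kb in gonad replicate 1 with a median of 45.9, and from 9.45 to 252 CPM per kb in gonad replicate 2 with a median of 43.3. T12G3.6, with 859 bases of exon, was highest, at 265 and 252 CPM per kb in gonads and 2.14 and 1.77 CPM per kb in whole worms. F55A11.8 (748 bases; chromosome V, 11788188 to 11789115, plus strand) had the next highest mean, with 204 and 234 CPM per kb. T12G3.6 exceeded F55A11.8 in both gonad libraries. K03H1.7 at 166 and 214, Y110A2AR.1 at 206 and 162, and C08F8.3 at 178 and 184 CPM per kb had overlapping gonad values, and those of the first 2 also overlapped the values of F55A11.8. Y18D10A.11 reached 173 and 149 CPM per kb, and T05F1.2, with the longest exon length of these (1867 bases), reached 159 and 148. Per length T05F1.2 was therefore no longer among the first 5. Y48G1A.2 followed with 129 and 154, K08F4.3 with 124 and 148, and K07A1.1 with 138 and 128 CPM per kb, again with overlapping gonad values. ZK1053.4 was lowest at 9.98 and 9.45 CPM per kb. K03H1.7 shares 46.8% of its exon length with K03H1.13 on the opposite strand. No strand is stated for these libraries, so reads in the shared part cannot be told apart. As counted, K03H1.13 was at 0.917 and 0.621 CPM in gonads and at 5.52 and 4.21 CPM in whole worms.

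The duplicates gave close values for the set. The log2 ratio of gonad replicate 2 to replicate 1 had a median of -0.06 and an SD of 0.20 over the 103 genes, with extremes of -0.49 and 0.36. Over all 4493 rows with at least 20 CPM in both gonad libraries, the median was -0.03 and the SD 0.18. None of the 103 genes differed by over 1.5-fold between the gonad libraries, against 12 of the 4493. EEED8.3 differed most, with 119.3 and 85.2 CPM. F14H3.6, with 146 and 110 CPM, and C50E3.13, with 34.3 and 25.9 CPM, came next, and all 3 were lower in replicate 2. In the set 66 genes were higher in replicate 1 and 37 in replicate 2, beside 2610 and 1883 of the 4493 rows. In whole worms 57 genes were higher in replicate 1 and 46 in replicate 2.

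At the low end the whole-worm counts were too few for a firm ratio. A count of 0 was found for 3 genes in whole-worm replicate 1 and for 2 in replicate 2, but no gene was at 0 in both, and 13 and 9 genes had 3 counts or fewer. F14H3.3 had 1095 and 1418 counts in gonads and 1 and 0 in whole worms. Pooled over the duplicates and scaled to library totals, its gonad level was 2474 times its whole-worm level, with an exact 95% Poisson interval from 444 to 97723. R06C7.2 had 647 and 709 counts in gonads and 0 and 2 in whole worms, a ratio of 668 (interval 185 to 5512). C06A5.8 had 608 and 628 counts against 0 and 2, a ratio of 608 (168 to 5024). F14H3.5 had 478 and 549 counts against 2 and 1, a ratio of 337 (115.3 to 1634). These intervals overlap, so the 4 genes cannot be ordered by their ratio, and they cover counting error only. EEED8.14 rested on a single whole-worm library, with 7 counts in replicate 1 and 0 in replicate 2, beside 26.8 and 26.6 CPM in gonads. Its fitted log2 fold change was 7.52, and 6.40 without whole-worm replicate 2. Without whole-worm replicate 1 the remaining count is 0 and the fitted value is no measure of size. These genes were picked for their low counts after the values were seen.

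Genes lay close to each limit on both sides. Just inside the gonad limit lay C34D4.10 at 20.5 and 20.4 CPM, F54D10.7 at 21.8 and 20.5 CPM and C16A11.3 at 22.2 and 20.6 CPM. Just outside lay C50F4.12 at 24.9 and 19.9 CPM, K12D12.5 at 26.8 and 19.8 CPM and C17E7.9 at 19.8 and 19.9 CPM. Near the whole-worm limit, C50E3.12 (1.99 and 1.44 CPM), T05F1.2 (1.99 and 1.71 CPM) and R02F2.4 (1.99 and 1.13 CPM) were kept. F45F2.11 (1.02 and 2.07 CPM), T12F5.2 (1.63 and 2.14 CPM) and C48B4.6 (1.33 and 2.26 CPM) were not. C48B4.6 shows how fine the line is, since at 299.7 and 430 CPM in gonads it was read more than any gene of the set.

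Genes without a hyphenated name made up 47.5% of the 217 autosomal genes that pass both limits. They were 7 of the 20 with the highest gonad CPM, 25 of the first 50 and 48 of the first 100. Among unnamed autosomal genes with at least 20 CPM in both gonad libraries, 9.79% of 1052 were under 2 CPM in both whole-worm libraries. Among named ones the share was 3.70% of 3078. Per kilobase the unnamed and named genes had close median gonad levels, 43.6 and 40.4 CPM per kb. The limits were the same for named and unnamed genes. These shares depend on the limits and are descriptions, and the differences were not tested.

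A longer gene collects more counts, so the limits themselves bear on the lengths of the genes in the set. Median coding length was 1047 bases, against 1159.5 for the 114 named genes and 825 for all 6755 unnamed autosomal genes. The longest were C35E7.5 with 3786 coding bases, C28A5.1 with 3669 bases in 18 exons, and M116.5 with 3060. K03H1.7 with 264 coding bases, Y48G1A.2 with 411 and F58A4.2 with 477 were the shortest. The genes had a median of 5 exons, between 2 and 18, and 36 of them (35.0%) had more than 1 annotated transcript. Of the 103, 76 shared no exon base with another gene, 23 overlapped a gene on the opposite strand and 5 one on the same strand, with 1 gene in both classes. Small RNA genes were left out of this count. Counted in the same way, 27 of the set and 1708 of all 6755 unnamed autosomal genes overlapped another gene. T10C6.7, at 45.4 and 55.0 CPM in gonads, shared 52.3% of its exon length with a gene on its own strand. F13A7.14, at 71.6 and 65.5 CPM, shared 44.1% with *syp-1*, a component of the synaptonemal complex that holds paired chromosomes together in meiosis. Counts of such genes depend on how shared reads were assigned, which is not given in the sources used here, and they are uncertain.

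The genes were spread over all 5 autosomes, with 17 on chromosome I, 24 on II, 23 on III, 18 on IV and 21 on V. Chromosome I held 16.5% of them and 30.7% of the 114 named genes, beside 16.9% of all unnamed autosomal genes. Chromosome III held 22.3% of the set, 16.7% of the named genes and 15.04% of all unnamed autosomal genes. Chromosome V, the richest in unnamed genes with 27.7%, held 20.4% of the set. When the annotated gene span of each chromosome was divided into 3 equal stretches, 29.1% of the set lay in the middle stretch, against 47.4% of the named genes and 37.9% of all unnamed autosomal genes. These differences were not tested.

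**Figure D2:**
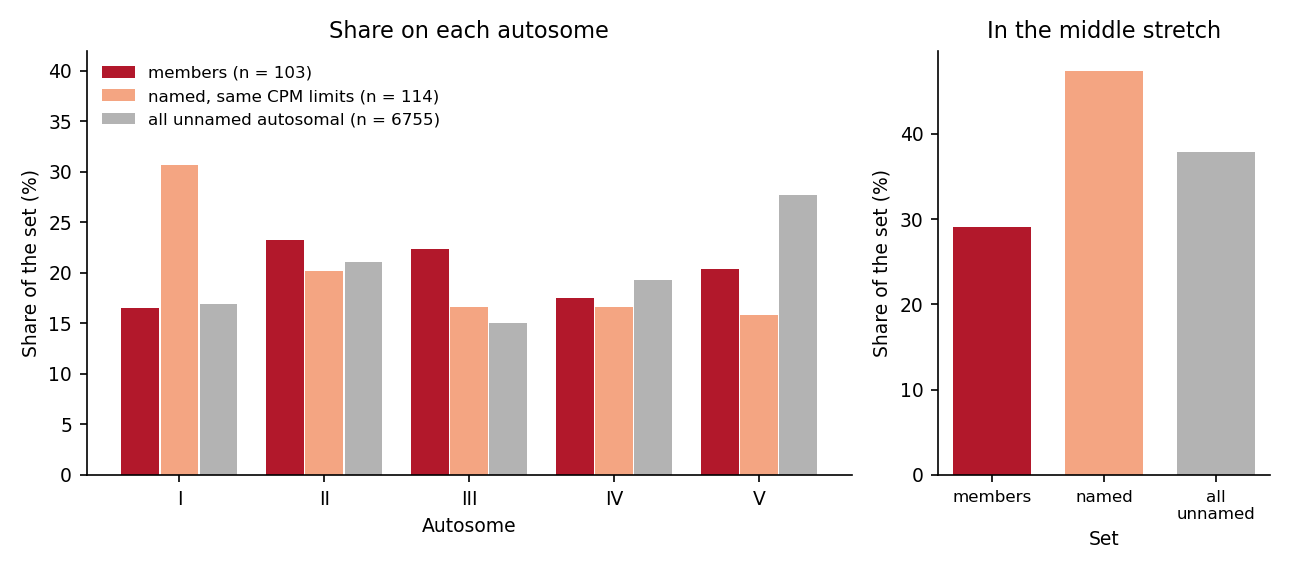
Share of genes on each autosome, in percent of the genes of a set, for the 103 unnamed genes chosen here, the 114 named autosomal genes passing the same limits and all unnamed autosomal protein-coding genes of the count table, and (right) the share in the middle one of 3 equal stretches. Chromosome I holds 16.5% of the unnamed and 30.7% of the named genes chosen.

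Some of the genes lay side by side. With a largest gap of 10 kb between neighbours of the set, 25 of the 103 (24.3%) fell into 10 groups, against 17 (14.9%) of the 114 named genes and 8 (44.4%) of the 18 unnamed X-linked genes under the same limits. The share thus lay between those of the other sets, and the differences were not tested. The longest runs held 4 genes each. In the C48B4 run (chromosome III, 9558669 to 9566115, 7447 bases) all 5 annotated genes lie on the minus strand and 4 belong to the set. C48B4.7 stood at 29.1 and 29.0 CPM in gonads against 0.613 and 0.584 CPM in whole worms. C48B4.9 stood at 58.4 and 65.8 CPM against 0.817 and 0.234 CPM. C48B4.10 stood at 44.8 and 49.7 CPM against 0.868 and 1.52 CPM, and C48B4.11 at 61.4 and 62.8 CPM against 0.613 and 1.09 CPM. Of these 4 genes C48B4.7 was lowest in both gonad libraries, while the values of C48B4.9 and C48B4.11 overlapped. C48B4.8, which lies between C48B4.7 and C48B4.9 and is not in the set, was at 3.07 and 2.86 CPM in gonads against 0.613 and 0.818 CPM in whole worms. It was still gonad-enriched, with a log2 fold change of 2.17 (SE 0.37, edgeR quasi-likelihood test, Benjamini-Hochberg adjusted p 1.61e-05), higher in both gonad libraries than in both whole-worm libraries. C48B4.6, which missed the whole-worm limit, lies 105 bases beyond the run. The shortest gap between genes of the set was here, 92 bases between C48B4.10 and C48B4.11. EEED8.14 and EEED8.3 on chromosome II start away from each other with 223 bases between them, and 261 bases separate F14H3.5 from F14H3.6.

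The F14H3 run on chromosome V (16051923 to 16058893, 6971 bases, minus strand) consisted of 4 genes that all belong to the set. F14H3.3 had 50.2 and 58.7 CPM in gonads and F14H3.4 had 35.8 and 31.6 CPM. F14H3.5 had 21.9 and 22.7 CPM, and F14H3.6 was the highest with 146 and 110 CPM. The gonad values of the 4 genes did not overlap. In whole worms the first 3 stayed at or below 0.117 CPM in both libraries, while F14H3.6 was at 1.63 and 1.64 CPM. In the T28A8 run on chromosome III (13499199 to 13508650, plus strand) 3 of 5 annotated genes belong to the set. T28A8.6 is described above, T28A8.4 had 64.5 and 67.9 CPM in gonads, and T28A8.3 had 109.6 and 107 CPM. T28A8.5, also in this run, was at 12.7 and 11.5 CPM in gonads against 0.153 and 0.273 CPM in whole worms, below the gonad limit but with a log2 fold change of 5.89 (SE 0.35). Whether genes of a run share sequence, so that reads could be assigned to more than 1 of them, was not tested.

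**Figure D3:**
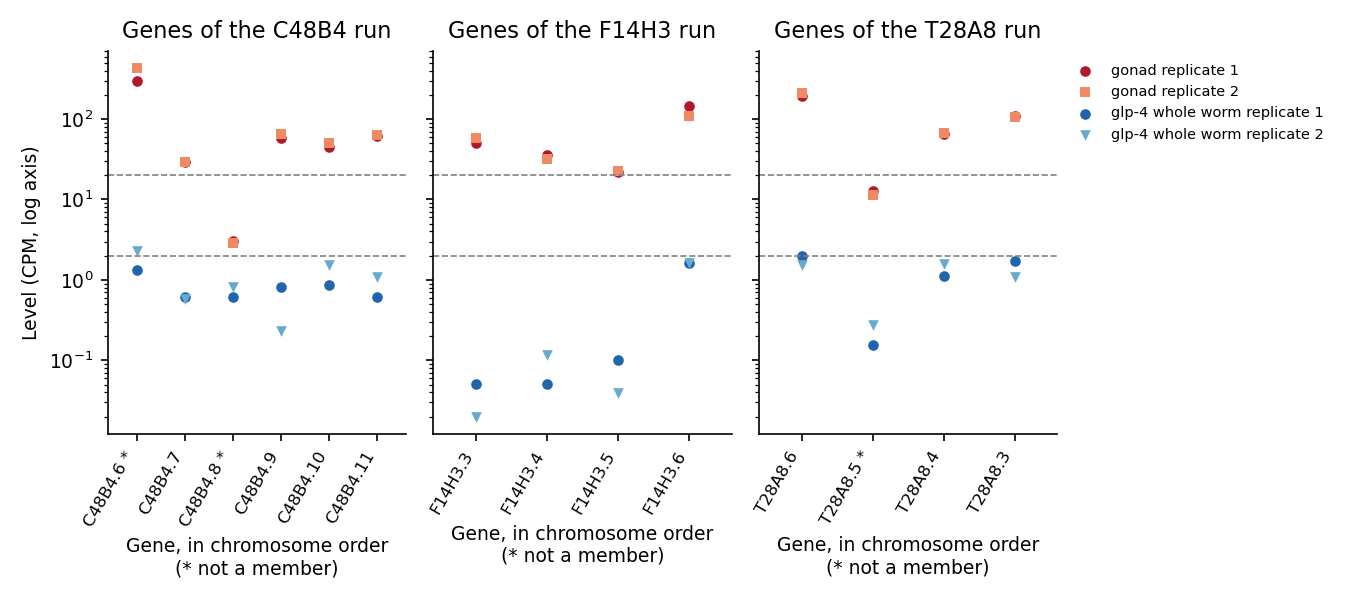
Levels in CPM (log axis) of the genes along the C48B4, F14H3 and T28A8 runs in the 2 gonad and 2 whole-worm libraries. Dashed lines mark 20 and 2 CPM, an asterisk marks a gene that is not in the set, and counts of 0 are drawn at 0.02 CPM. In each run gonad points lie above whole-worm points for every gene shown, including C48B4.8 at 3.07 and 2.86 CPM in gonads.

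The genes next to the set were not used to choose it, so the fit over all genes gives a test for each of them. Around the 103 genes lay 184 different protein-coding neighbours outside the set, of which 165 were in the count table and 118 passed the filter on low counts. Among the 118, 67 (56.8%) were gonad-enriched and 32 (27.1%) were soma-enriched in edgeR (quasi-likelihood test, Benjamini-Hochberg adjusted p under 0.05, at least 2-fold). The background over all tested genes was 30.9% gonad-enriched and 53.1% soma-enriched, and over autosomal protein-coding genes it was 35% and 48.2%. The median log2 fold change of the neighbours was 1.56, against -0.71 for all tested autosomal protein-coding genes, and it was also 1.56 with the 3 neighbours at 0 in both gonad libraries set to a bound. Neighbours of the 114 named genes were similar, with 85 of 163 (52.1%) gonad-enriched and a median of 1.22, so the pattern is not shown to be particular to unnamed genes. Of the 103 genes, 69 had a gonad-enriched neighbour or another gene of the set beside them, and 30 had a soma-enriched one. The same count was not made for other genes, so nothing is read from it.

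Neighbours on the opposite strand that start towards the gene (divergent pairs) were gonad-enriched in 22 of 29 tested cases (75.9%). Those on the same strand were so in 33 of 63 (52.4%), and those ending towards the gene (convergent) in 12 of 26 (46.2%). By distance, 57 of 88 neighbours within 1000 bases (64.8%) were gonad-enriched and 18 (20.5%) soma-enriched. Farther away, 12 of 32 (37.5%) were gonad-enriched and 14 soma-enriched, and their log2 fold changes had a median of -0.29. A neighbour of 2 genes can stand in more than 1 of these classes. Where overlapping neighbours were left out, 57 of 100 (57%) were gonad-enriched. The orientation classes above mix gaps and overlaps. Within 1000 bases and without overlap, 16 of 20 divergent (80%), 26 of 42 same-strand (61.9%) and 5 of 8 convergent neighbours (62.5%) were gonad-enriched. The differences between orientations and between distances were not tested.

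**Figure D4:**
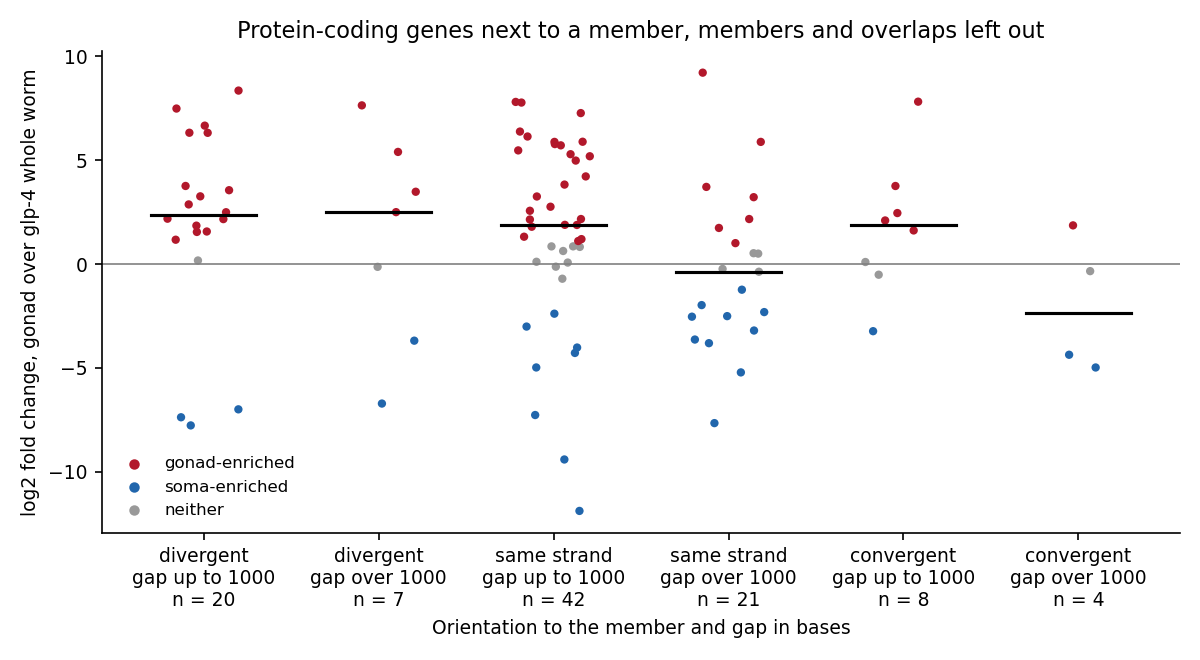
Log2 fold change (gonad over whole worm, edgeR) of tested neighbours that do not overlap the gene of the set, by orientation and gap. Points are genes and black bars class medians. Within 1000 bases the medians were 2.34 for the 20 divergent, 1.89 for the 42 same-strand and 1.86 for the 8 convergent neighbours. A neighbour at 0 in both gonad libraries, such as *cyp-14A5* at the bottom, is drawn at a fitted value that is no measure of size.

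The 4 closest divergent neighbours that do not overlap a gene of the set were all gonad-enriched, and 3 of them were also well above 2 CPM in whole worms. *mrpl-51*, named for a protein of the mitochondrial ribosome, lies 52 bases from T12G3.6, the gene with the highest level per kilobase. It was at 26.2 and 25.6 CPM in gonads against 13.8 and 11.8 CPM in whole worms, for a log2 change of 1.17 (SE 0.17, edgeR adjusted p 1.44e-06). *inx-22*, an innexin of gap junctions between oocytes and sheath cells, lies 172 bases from Y47G6A.25. At 181 and 187 CPM in gonads against 1.33 and 0.974 CPM in whole worms it was the exception, under 2 CPM in both whole-worm libraries. *vps-18*, of the complex that tethers vesicles to lysosomes, lies 178 bases from T12C9.7 and was at 168 and 193 CPM against 70.8 and 66.7 CPM, a log2 fold change of 1.55 (SE 0.13, edgeR adjusted p 8.96e-10). *taf-6.2*, for a subunit of the general transcription factor TFIID, lies 201 bases from Y37E11AL.3 and was at 84.8 and 98.9 CPM against 17.3 and 18.9 CPM, a log2 fold change of 2.50 (SE 0.15, edgeR adjusted p 3.65e-12). Gonad and whole-worm values did not overlap for any of these 4.

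Several other neighbours are known germline genes, and the 6 gonad-enriched ones given first were chosen after their values were seen. *deps-1*, a P granule gene, lies 222 bases from the divergent Y65B4BL.4 and was at 363 and 330 CPM in gonads against 3.06 and 4.36 CPM in whole worms. *wago-1*, an Argonaute of the germline small RNA pathway, lies 882 bases from R06C7.2 and was at 894 and 806 CPM against 10.6 and 12.8 CPM. On its other side R06C7.2 has *hasp-1*, for a histone kinase of dividing cells, at 97.5 and 106 CPM against 5.52 and 6.55 CPM. R06C7.2 therefore sits between a pair of genes that were gonad-enriched. It was itself lower than both in gonads, at 29.7 and 29.4 CPM, and also in whole worms, at 2 counts in all, where the selection caps its level. *cyb-2.1*, a B-type cyclin, lies 468 bases from Y43E12A.3 on the same strand and was at 504 and 511 CPM against 2.04 and 2.88 CPM. *mis-12*, for a kinetochore protein, lies 662 bases from Y47G6A.25 and was at 53.1 and 57.9 CPM against 1.69 and 1.68 CPM. *tofu-1*, of the piRNA pathway, lies 101 bases from C27H6.9 and was at 127 and 112 CPM against 14.04 and 13.8 CPM. All 6 were gonad-enriched in edgeR, with log2 fold changes from 3.25 for *tofu-1* to 7.81 for *cyb-2.1*, and no gonad value overlapped a whole-worm value. Not every germline neighbour was so. *gld-2*, 151 bases from ZC308.4, was at 216 and 222 CPM in gonads against 165 and 151 CPM in whole worms. Its log2 fold change of 0.63 fell short of the 2-fold limit. *mut-14*, 454 bases from C14C11.2, was gonad-enriched at a lower log2 fold change of 1.85.

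A close neighbour on the same strand did not always go with the gene. *glt-3*, a glutamate transporter, is annotated 12 bases from K08F4.3. It was at 0.321 and 0.290 CPM in gonads against 10.9 and 10.8 CPM in whole worms, for a log2 change of -4.98 (SE 0.33, edgeR adjusted p 1.25e-11), while K08F4.3 was at 98.6 and 117 CPM in gonads against 0.970 and 1.44 CPM in whole worms. C42C1.9, 49 bases from C42C1.8, was itself low at 1.60 and 1.90 CPM in gonads, against 1 count in each whole-worm library, and was gonad-enriched (edgeR adjusted p 2.99e-07). Of the other 2 nearest same-strand neighbours, C27F2.6 was at 0 in all 4 libraries and Y37E11AL.2, with 10 and 7 counts in gonads and 0 and 1 in whole worms, was not tested. Among soma-enriched neighbours chosen after their values were seen, D2023.1 lies 434 bases from F55A11.8 and was at 0.092 and 0.124 CPM in gonads against 73.0 and 98.6 CPM in whole worms. *rege-1*, for an endoribonuclease, lies 161 bases from T10B11.8 and was at 4.81 and 6.63 CPM against 118.7 and 130 CPM. T16G12.1, divergent from T16G12.3 at 763 bases, was at 1.28 and 0.952 CPM against 271 and 272 CPM. *cyp-14A5*, a cytochrome P450 gene 950 bases from F08F3.6, was at 0 in both gonad libraries and at 23.4 and 20.7 CPM in whole worms. Genes of the set therefore lay within 1000 bases of genes with the opposite distribution as well as of genes with the same one.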

How the data were processed

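Total RNA was measured in 4 libraries. Per the labels' protocols, RNA was extracted with a PicoPure kit, ribosomal RNA was removed, and libraries were made with an amplifying kit (Ovation RNA-Seq System V2) for which no strand is stated. The authors deposited raw counts per gene, which are used here, and a normalized table, which is not. Neither the aligner nor the counting program nor the build is given in the sources used here. Amplified reads are not independent molecules.

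CPM was computed as count over column sum. Of 20182 rows, 19513 matched the Ensembl release 115 annotation of WBcel235 by identifier, which may not be the authors' annotation. Lengths, coordinates and neighbours come from it. All 103 genes chosen have a RefSeq entry and none a hyphenated symbol there. The fit used edgeR 4.0.16 in R 4.3.3 (TMM, filterByExpr with minimum count 10 and minimum total 15, robust quasi-likelihood, group as the only term), with Benjamini-Hochberg adjustment over 13101 genes. It left out 1 row whose 4 counts repeat another row's. It was tried on simulated counts in which few genes changed, as many up as down. That simulation does not cover a contrast in which most tested genes are called, as here. DESeq2 1.42.0 was an alternative. The SE given with a log2 fold change is not an output of edgeR and was derived from its test. It is the absolute log2 fold change over the square root of the quasi-likelihood F statistic. The smallest p that an exact permutation of 2 against 2 libraries allows is above 0.05, so no such test was run.

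The members, lists and tests were chosen with earlier results of these data known. Genes were named by rank (gonad CPM, CPM per kb, replicate difference, distance to a limit, gap, length, overlap, nearest neighbours), and the text says where a gene falls outside this. Paralogs, protein products, promoters and product descriptions were planned but are not analysed here.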

Additional observations from a re-analysis of the deposited data

How the results depend on the processing

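The 103 genes were called gonad-enriched under every alternative fit, which their selection fixes. The number chosen depends on the limits. A gonad limit of 40 CPM gave 65 genes and a whole-worm limit of 1 CPM gave 53, all of them among the 103. A gonad limit of 10 CPM gave 143, a whole-worm limit of 4 CPM gave 152 and TMM-adjusted CPM gave 109, each holding all 103. Leaving out 1 library gave at most 113. Over all tested genes, 4043 were gonad-enriched, 4175 with DESeq2 size factors, 4294 without the filter and 4251 with DESeq2. Of the neighbours, 67 were gonad-enriched, between 67 and 75 under other fits, between 67 and 70 with 1 library left out, and 57 within 1000 bases or without overlapping pairs. Of the 32 soma-enriched neighbours, 18 lay within 1000 bases. Leaving out overlapping pairs, counting soma-enriched neighbours and the 10 kb limit for groups were chosen after seeing the data. With a replicate block the counts were 4019 and 67 gonad-enriched and 32 soma-enriched neighbours; the numbers share only a label, since the deviations of same-numbered libraries had a correlation of 0.089 over genes. Every gene named by rank and tested in the main fit kept its direction and its side of the threshold in the fits run. For genes of the set the selection fixes this. Without whole-worm replicate 1 the fitted fold of 12 of the 103 genes moved by over 1.5 times (among them EEED8.14), without whole-worm replicate 2 that of 16 (among them F26G5.1), and without either gonad library that of 0. Alternatives for paralogs were not run, since protein sequences were not used here. Depth limits the ratios, as the median gene had 16 and 20 whole-worm counts.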
